A study of Mus musculus with 12 samples.

Results

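The genes described here are 10 genes of NF-kB signalling and of tumor necrosis factor (TNF) reception in the mouse retina. They are the NF-kB subunit genes Nfkb1, Nfkb2, Rela and Relb, the genes Nfkbia, Bcl3 and Nfkbiz of the IkB family, and the receptor genes Tnfrsf1a, Tnfrsf1b and Tnfrsf12a. They were taken by name, with earlier results of these data known, as the Ensembl identifiers that map to these symbols. All 10 were found among the 54532 gene identifiers of the deposited tables.

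NF-kB factors are dimers of related DNA-binding proteins that IkB proteins hold inactive in the cytoplasm. When TNF or a related ligand binds its receptor, a kinase complex marks the IkB protein for destruction, and the freed dimer enters the nucleus and switches on genes of inflammation and cell survival, among them Nfkbia, the gene of its own inhibitor. In the injured retina and optic nerve, TNF is known as a product of microglia and macroglia, and its receptors are known to transmit both death and survival signals to ganglion cells.

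The study sequenced polyadenylated RNA from retinas of wild type C57BL/6 mice, female according to its methods and 13 weeks old according to the labels, as 12 libraries with 3 in each of 4 groups. MOG mice had been immunized with a peptide of myelin oligodendrocyte glycoprotein in complete Freund's adjuvant with Mycobacterium tuberculosis and had received pertussis toxin, which induces experimental autoimmune encephalomyelitis with inflammation of the optic nerve, a model of multiple sclerosis. GB20 and GV16 mice were immunized in the same way and, from 3 weeks after immunization, needled every 3 days for 2 weeks under xylazine and ketamine at the GB20 acupoint or at the control acupoint GV16, both at the back of the neck. SHAM mice are named as the control group, and what they received, or whether SHAM and MOG mice were anaesthetized, is not stated in the sources used here. Retinas were taken 5 weeks after immunization. The methods give 2 or 3 mice for each group and 3 repeats of the experiment. Whether a library holds the retinas of 1 mouse or pools those of 1 repeat is not stated. The p-values below therefore set differences between groups against the spread between libraries, which need not be the spread between mice. The main fit shares its estimate of that spread over the 4 groups.

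The total count per library ran from 15860278 in GV16 2 to 19194280 in GB20 1, and 1 count in the deepest library equals 0.0521 counts per 1000000 counts of the library (CPM). Levels of a gene between libraries are given as CPM after TMM scaling, and levels between genes as FPKM, the deposited values per gene length. A gene was called when its Benjamini-Hochberg adjusted p from the edgeR quasi-likelihood fit on all 12 libraries was under 0.05, adjusted over the 18299 genes that passed the filter on low counts. All 10 genes passed that filter, and all are protein coding. The groups of a gene do not overlap when every library of one group lies above every library of the other.

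Per gene length, Nfkbia and Rela had the highest levels of the 10 genes. Nfkbia, which encodes IkB alpha, the inhibitor that NF-kB resupplies by feedback, averaged 14.3 ± 1.21 FPKM (SD over the 12 libraries), above 80.2% of the tested genes. Rela, which encodes the transactivating subunit of the canonical dimer, averaged 11.02 ± 1.27 FPKM, above 73.7% of the tested genes. The middle of the order was held by Tnfrsf12a at 4.53 ± 0.862 FPKM, Nfkbiz at 4.09 ± 0.399, Tnfrsf1a at 3.01 ± 0.659 and Nfkb1 at 2.10 ± 0.155. The lowest 4 were Nfkb2 at 0.880 ± 0.149 FPKM, Relb at 0.596 ± 0.137, Bcl3 at 0.554 ± 0.302 and Tnfrsf1b at 0.445 ± 0.136, and Tnfrsf1b lay above 11.5% of the tested genes. Between neighbours in this order, the ranges over the 12 libraries were separate for Rela above Tnfrsf12a and for Nfkb1 above Nfkb2, and they overlapped for the other 7 pairs. Within single libraries, Nfkbia was above Rela and Nfkbiz above Tnfrsf1a in 12 of 12, whereas Tnfrsf12a was above Nfkbiz in 7 of 12 and Relb above Bcl3 in 6 of 12.

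**Figure D1:**
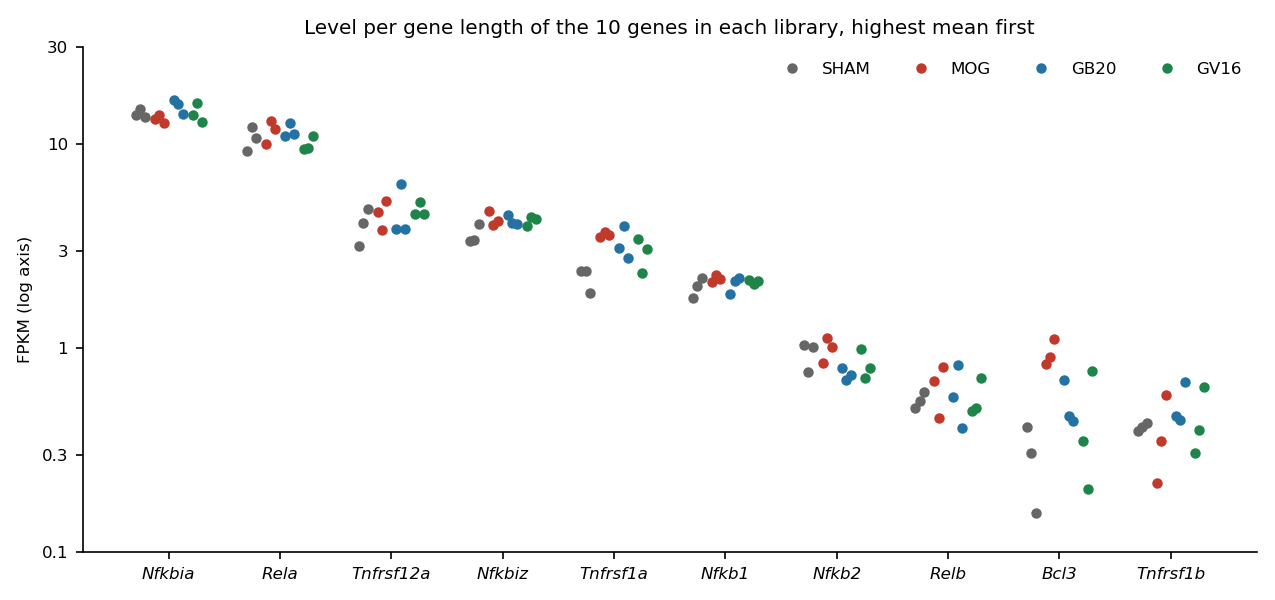
Level per gene length (FPKM, log axis) of the 10 genes in each of the 12 libraries, colored by group and ordered from the highest mean to the lowest. Nfkbia lies between 12.7 and 16.5 FPKM, and Bcl3 has the widest range in proportion to its level, from 0.155 to 1.11 FPKM.

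The comparison of MOG with SHAM asks what immunization and the optic neuritis that follows it change in the retina. Of the 10 genes, 2 rose in MOG: Bcl3, which encodes a nuclear IkB protein that joins NF-kB dimers at DNA, was 3.26-fold higher, and Tnfrsf1a, which encodes TNF receptor 1, was 1.63-fold higher. None of the 4 subunit genes, nor Nfkbia, Nfkbiz, Tnfrsf1b or Tnfrsf12a, passed the edgeR test. That is 2 of 10 genes called, both higher, where 1.34% of all tested genes were called (245 of 18299) and 0.568% were called as higher in MOG. Because the 10 genes were chosen with earlier results of these data known, these shares are set side by side as a description only. DESeq2 on the 12 libraries also called 2 of the 10 genes. By sign alone 8 of the 10 genes were higher in MOG and 2 lower, with a median log2 fold change of 0.16 beside -0.0023 over all tested genes. The groups did not overlap for 2 of the 10 genes, Bcl3 and Tnfrsf1a, where they did not overlap for 16.2% of all tested genes.

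**Figure D2:**
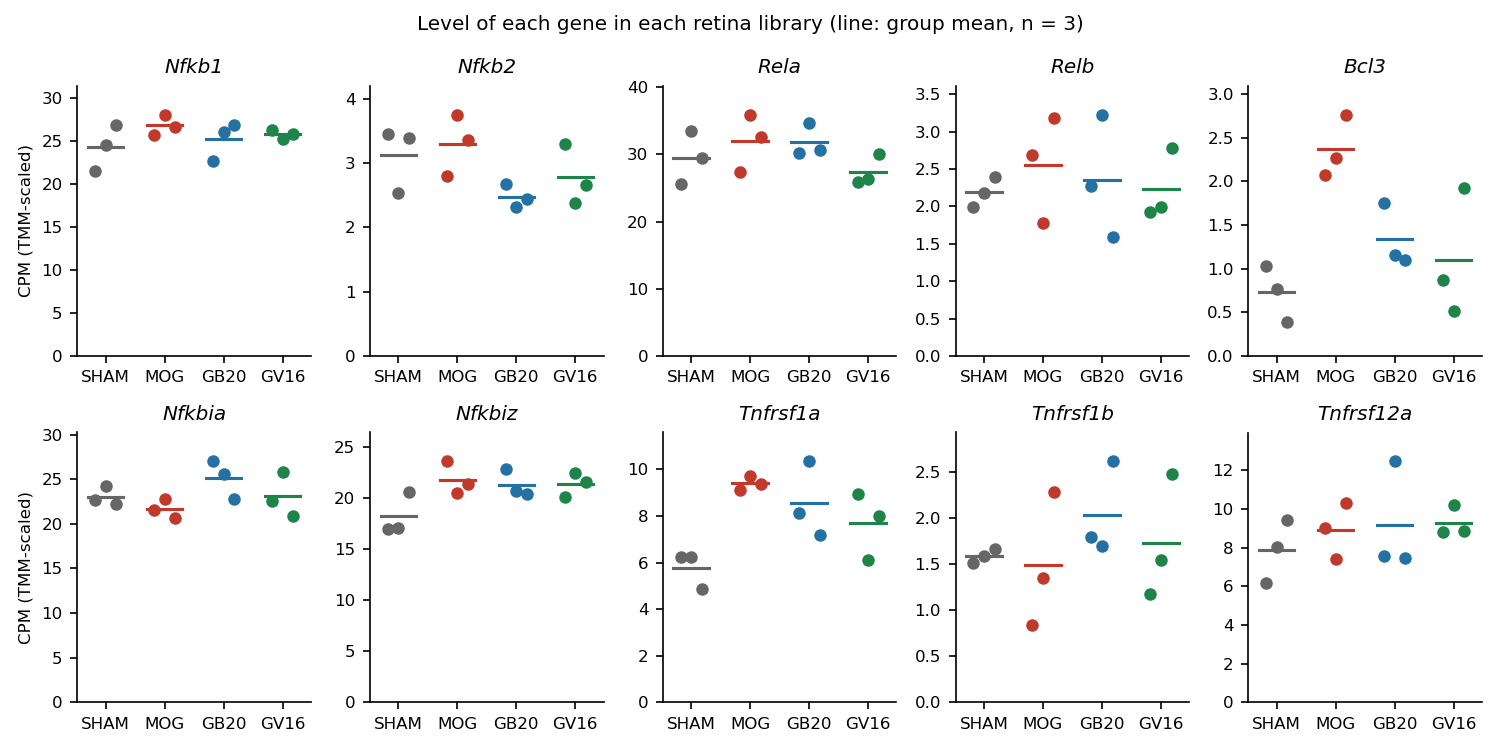
CPM of each of the 10 genes in each library, with the 3 libraries of SHAM, MOG, GB20 and GV16 as points and the group mean as a line; each panel starts at 0. The 3 MOG libraries of Bcl3 lie between 2.07 and 2.76 CPM and those of Tnfrsf1a between 9.12 and 9.71 CPM, all above the SHAM libraries.

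Among the subunit genes, Nfkb1 encodes the precursor of the DNA-binding subunit that partners RelA, and it (ENSMUSG00000028163) lies at chr3:135584655-135691547 on the minus strand of GRCm38. Its mean level in SHAM was 24.3 ± 2.69 CPM (SD, n = 3 libraries), beside 26.8 ± 1.17 CPM for MOG, 25.2 ± 2.20 CPM for GB20 and 25.8 ± 0.532 CPM for GV16. Rela (ENSMUSG00000024927, chr19:5637483-5648130, plus strand) averaged 29.5 ± 3.96 CPM in SHAM, beside 32.0 ± 4.29 CPM for MOG, 31.8 ± 2.45 CPM for GB20 and 27.4 ± 2.34 CPM for GV16. Their libraries overlapped between MOG and SHAM, with log2 fold changes of 0.14 for Nfkb1 (95% confidence interval -0.055 to 0.34) and 0.11 for Rela (-0.11 to 0.34).

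Nfkb2 and Relb encode the subunits of the noncanonical dimer, which receptors such as the lymphotoxin beta receptor activate through the kinase NIK. Nfkb2 (ENSMUSG00000025225, chr19:46304320-46312385, plus strand) averaged 3.12 ± 0.514 CPM in SHAM, beside 3.30 ± 0.478 CPM for MOG, 2.48 ± 0.187 CPM for GB20 and 2.78 ± 0.467 CPM for GV16. Of its exon bases 18.1% overlap exons of genes on the other strand, among them Psd at a mean of 411 CPM, and since the strand setting of the counting is not stated, its level is uncertain. Relb (ENSMUSG00000002983, chr7:19606217-19629438, minus strand) averaged 2.19 ± 0.194 CPM in SHAM, beside 2.55 ± 0.710 CPM for MOG, 2.36 ± 0.823 CPM for GB20 and 2.23 ± 0.479 CPM for GV16. In MOG against SHAM the log2 fold change was 0.078 (95% confidence interval -0.35 to 0.50) for Nfkb2 and 0.22 (-0.33 to 0.78) for Relb, with overlapping libraries for both. Of the 4 subunit genes, 0 were called by edgeR or by DESeq2 in this comparison, 0 had an unadjusted p under 0.05 (13% of all tested genes had), and their median log2 fold change was 0.13.

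Bcl3, of the IkB family, had the largest fold change of the 10 genes in MOG against SHAM. It is a partner of the DNA-binding subunits that lack an activation domain, and it can turn their target genes up or down. Its level was 1.03, 0.764 and 0.388 CPM in the 3 SHAM libraries, 2.07, 2.27 and 2.76 CPM in those of MOG, 1.75, 1.16 and 1.10 CPM in those of GB20 and 0.869, 0.514 and 1.92 CPM in those of GV16. Every MOG library was above every library of the other groups, the GB20 libraries lay between SHAM and MOG, and the GV16 libraries were spread, with 2 of them among the SHAM values and GV16 3 near the lowest MOG library. These levels rest on 7 to 46 counts per library. The log2 fold change of MOG against SHAM was 1.70 (SE 0.392, 95% confidence interval 0.89 to 2.52, Benjamini-Hochberg adjusted p = 0.0263 in the edgeR fit). The call was lost without SHAM 3 (log2 fold change 1.39, edgeR adjusted p = 0.07), without MOG 2 (1.74, adjusted p = 0.0907) and without MOG 3 (1.58, adjusted p = 0.147). Over the 12 fits that leave out 1 library each, it was called in 9, and the log2 fold change stayed between 1.39 and 2.03 with an edgeR adjusted p between 0.00949 and 0.147. Fits without a GB20 or GV16 library keep every MOG and SHAM library, and all of these kept the call. Of the fits without a MOG or SHAM library, only those without SHAM 1, SHAM 2 or MOG 1 kept it.

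Bcl3 (ENSMUSG00000053175) lies at chr7:19808462-19822770 on the minus strand, and 6.51% of its exon bases overlap Gm16175 on the other strand, which reached at most 0.0619 CPM in any library. The sequences around the start sites of Bcl3, of Nfkbia, the classical feedback target of NF-kB, and of Tnfrsf1a are shown because Bcl3 and Tnfrsf1a are the 2 genes that rose together in MOG. They are RefSeq promoter sequences on GRCm38.p6, from 250 bases before to 50 bases after the start site, printed 5′ to 3′ on the strand of the gene; capitals mark the kappaB motif in Bcl3 and Nfkbia and the STAT motif in Tnfrsf1a. They cover chr7:19822706-19823005 (minus strand) for Bcl3, chr12:55492598-55492897 (minus strand) for Nfkbia and chr6:125349473-125349772 (plus strand) for Tnfrsf1a.
Bcl3: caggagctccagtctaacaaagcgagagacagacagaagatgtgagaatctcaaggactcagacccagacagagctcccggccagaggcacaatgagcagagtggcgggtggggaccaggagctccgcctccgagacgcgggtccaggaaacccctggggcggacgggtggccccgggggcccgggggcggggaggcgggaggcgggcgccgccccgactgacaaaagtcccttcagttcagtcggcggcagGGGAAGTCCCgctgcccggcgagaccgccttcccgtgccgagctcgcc
Nfkbia: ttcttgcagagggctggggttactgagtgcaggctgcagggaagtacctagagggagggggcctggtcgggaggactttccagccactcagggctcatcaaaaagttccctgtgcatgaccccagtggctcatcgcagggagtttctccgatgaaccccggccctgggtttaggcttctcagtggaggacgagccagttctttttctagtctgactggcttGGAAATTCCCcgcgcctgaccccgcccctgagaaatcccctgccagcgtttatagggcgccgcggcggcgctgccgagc
Tnfrsf1a: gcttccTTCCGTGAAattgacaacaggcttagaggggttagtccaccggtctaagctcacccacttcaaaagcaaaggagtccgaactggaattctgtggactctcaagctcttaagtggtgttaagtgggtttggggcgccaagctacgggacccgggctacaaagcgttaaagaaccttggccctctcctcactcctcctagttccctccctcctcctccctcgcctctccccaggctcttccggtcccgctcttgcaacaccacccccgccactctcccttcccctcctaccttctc
The 10-base kappaB motif and the palindrome TTCNNNGAA of STAT factors were searched on both strands. The kappaB match GGGAAGTCCC of Bcl3 begins 3 bases after the start site, the match GGAAATTCCC of Nfkbia, a match on the opposite strand, begins 29 bases before it, and TTCCGTGAA of Tnfrsf1a begins 244 bases before it. These positions are relative to the RefSeq start sites. The GENCODE span of Tnfrsf1a begins at chr6:125349362, before its window does, so by that annotation TTCCGTGAA lies inside the gene. Of the 10 genes, 7 had a sequence, in 9 windows, and Nfkb1, Relb and Nfkbiz did not. The kappaB motif was found in 5 of the 9 windows, those of Nfkb2 (3 windows, 2 of which overlap and share a match), Bcl3 and Nfkbia, and in 8.46% of all 32851 windows of this length. The STAT motif was found in 3 of the 9, those of Nfkb2, Tnfrsf1a and Tnfrsf1b (1 window each), and in 8.30% of all windows. A match is a description of the letters, and binding was not measured.

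Nfkbia (ENSMUSG00000021025, chr12:55489410-55492647, minus strand) was at 22.6, 24.2 and 22.2 CPM in the 3 SHAM libraries, 21.5, 22.8 and 20.7 CPM in those of MOG, 27.0, 25.5 and 22.8 CPM in those of GB20 and 22.5, 25.8 and 20.9 CPM in those of GV16. Its libraries overlapped between MOG and SHAM, and the log2 fold change was -0.088 (SE 0.0987, edgeR adjusted p = 0.743). Nfkbiz encodes IkB zeta, a nuclear cofactor needed for a second wave of NF-kB target genes, and (ENSMUSG00000035356) lies at chr16:55811375-55838899 on the minus strand. Its level was 17.0, 17.1 and 20.6 CPM in SHAM against 23.6, 20.5 and 21.4 CPM in MOG, so that SHAM 3 lay just above the lowest MOG library. The log2 fold change of 0.26 (SE 0.102) had an unadjusted p of 0.0193 in edgeR and an adjusted p of 0.273. In the needled groups Nfkbiz stood at 21.4 ± 1.36 CPM (GB20) and 21.4 ± 1.18 CPM (GV16), beside 21.8 ± 1.60 in MOG and 18.3 ± 2.07 in SHAM.

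Among the receptor genes, Tnfrsf1a (ENSMUSG00000030341, chr6:125349362-125362484, plus strand) rose in MOG. TNF receptor 1 binds TNF and lymphotoxin alpha and carries a death domain, through which it can lead to NF-kB activation or to cell death. Its level was 6.24, 6.23 and 4.88 CPM in the 3 SHAM libraries, 9.12, 9.71 and 9.37 CPM in those of MOG, 8.14, 10.3 and 7.19 CPM in those of GB20 and 8.94, 6.11 and 7.99 CPM in those of GV16. The MOG libraries were tightly grouped and all above SHAM, all GB20 libraries were above SHAM with GB20 2 above MOG as well, and GV16 2 lay within the SHAM range. The counts behind these levels ran from 88 to 170 per library. The log2 fold change of MOG against SHAM was 0.70 (SE 0.163, 95% confidence interval 0.36 to 1.04, edgeR adjusted p = 0.0290). It was called in 7 of the 12 fits that leave out 1 library each, with log2 fold changes between 0.59 and 0.77 and an edgeR adjusted p between 0.0200 and 0.137. The call was lost without SHAM 1 (edgeR adjusted p = 0.065), SHAM 3 (0.0789), MOG 1 (0.0552), MOG 2 (0.137) and MOG 3 (0.115). Of the fits without a MOG or SHAM library, only the one without SHAM 2 kept the call (edgeR adjusted p = 0.0260). The fits without a GB20 or GV16 library, which keep every MOG and SHAM library, all kept it.

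Tnfrsf1b encodes TNF receptor 2, which lacks a death domain and responds best to membrane-bound TNF, and (ENSMUSG00000028599) lies at chr4:145213463-145246870 on the minus strand. It averaged 1.59 ± 0.0755 CPM in SHAM, beside 1.49 ± 0.731 CPM for MOG, 2.04 ± 0.503 CPM for GB20 and 1.73 ± 0.669 CPM for GV16, from 15 to 43 counts per library. The 3 MOG libraries, at 0.840, 1.35 and 2.28 CPM, lay on both sides of the SHAM libraries, and the 95% confidence interval of the log2 fold change of -0.10 ran from -0.80 to 0.60. Tnfrsf12a (ENSMUSG00000023905, chr17:23675445-23677468, minus strand) encodes Fn14, the receptor of the cytokine TWEAK and known to be induced in injured tissue. It averaged 7.89 ± 1.64 CPM in SHAM, beside 8.92 ± 1.45 CPM for MOG, 9.18 ± 2.85 CPM for GB20 and 9.30 ± 0.801 CPM for GV16. The log2 fold change of Tnfrsf12a in MOG against SHAM was 0.18 (95% confidence interval -0.22 to 0.57), with overlapping libraries.

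**Figure D3:**
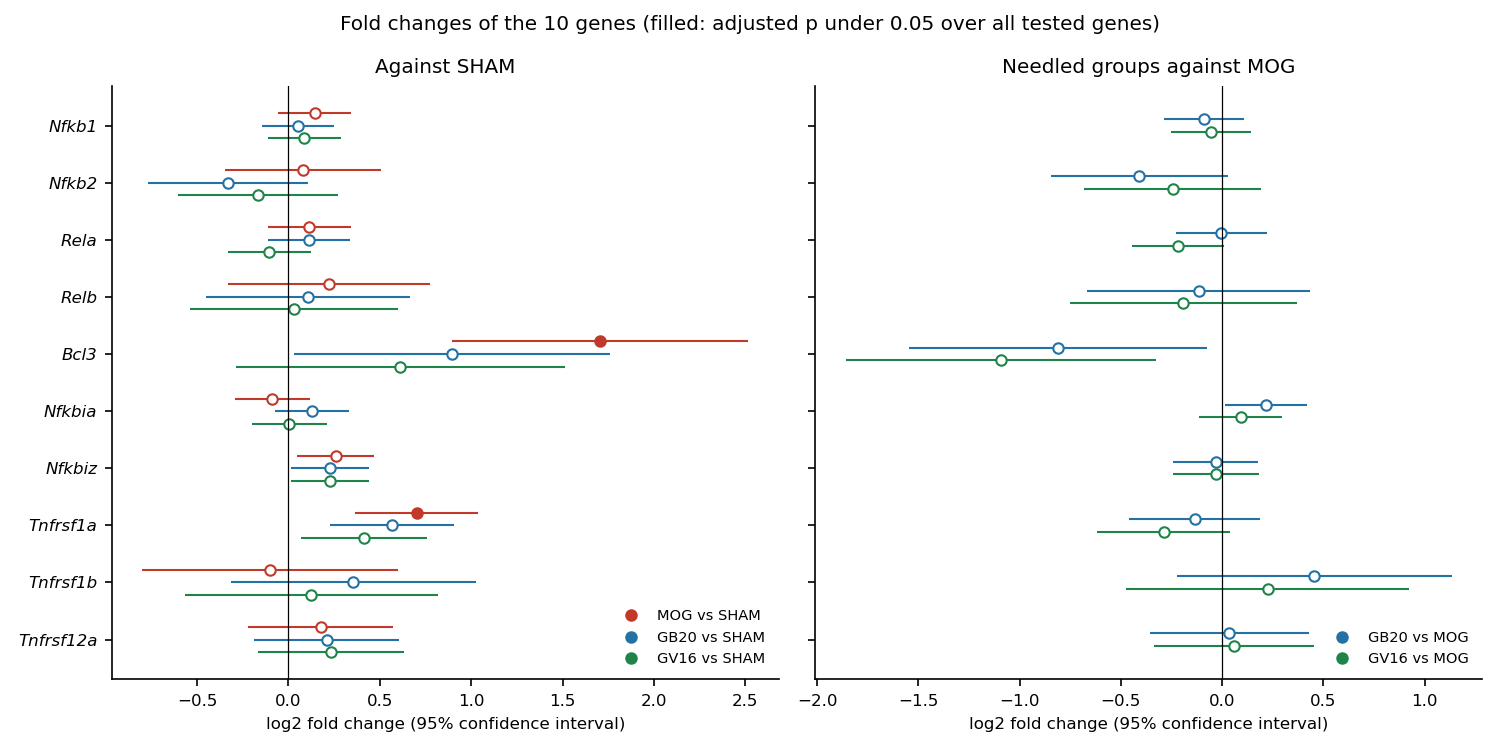
Log2 fold change of each of the 10 genes with its 95% confidence interval from the edgeR fit; filled points have an adjusted p under 0.05 over all tested genes. The 2 filled points are Bcl3 at 1.70 and Tnfrsf1a at 0.70, both in MOG against SHAM.

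The comparisons of the needled groups with MOG ask whether needling alters the retina of immunized mice, and both use the same 3 MOG libraries. Of the 10 genes, 0 were called by edgeR in GB20 against MOG, where 0.24% of all tested genes were called (44 of 18299), and DESeq2 called 0. An unadjusted p under 0.05 was found for 2 of the 10 genes and for 8% of all tested genes. Bcl3 was lower in each GB20 library than in each MOG library, with a log2 fold change of -0.81 (SE 0.355) and an edgeR p of 0.0319 unadjusted and 0.570 adjusted. Nfkbia was higher in each GB20 library than in each MOG library, by a log2 fold change of 0.22 (SE 0.0981) with an edgeR p of 0.0388 unadjusted and 0.594 adjusted. Nfkb2 was lower in each GB20 library, with a log2 fold change of -0.41 (SE 0.211, edgeR adjusted p = 0.638, unadjusted 0.0651). For these 3 of 10 genes the groups did not overlap, where they did not overlap for 15.7% of all tested genes. By sign 3 of the 10 genes were higher in GB20 and 7 lower (2 and 8 with the length trend removed), with a median log2 fold change of -0.062 beside 0.00084 over all tested genes. Rela, counted as lower at -0.0044, turned higher with no filter or with the library number as a block.

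In GV16 against MOG, 0 of the 10 genes were called by edgeR, where 0.164% of all tested genes were called (30 of 18299), and DESeq2 called 0. An unadjusted p under 0.05 was found for 1 of the 10 genes and for 5.3% of all tested genes. That gene was Bcl3, with a log2 fold change of -1.09 (SE 0.370) and an edgeR p of 0.00709 unadjusted and 0.623 adjusted; every GV16 library was below every MOG library. The value depends on single GV16 libraries: it was -1.76 without GV16 3 (edgeR adjusted p = 0.143) and -0.76 without GV16 2 (adjusted p = 0.9999). Tnfrsf1a was also lower in each GV16 library than in each MOG library, by a log2 fold change of -0.29 (SE 0.159, edgeR adjusted p = 0.989, unadjusted 0.0824), which was -0.15 without GV16 2 and -0.41 without GV16 1. These 2 of 10 genes without overlap stand beside 12.6% of all tested genes. By sign 3 genes were higher in GV16 and 7 lower, and the median log2 fold change was -0.12 beside 0.0024 over all tested genes.

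The comparison of GB20 with GV16 asks whether the needling site matters. By edgeR 0 of the 10 genes were called, where 0.00546% of all tested genes were called (1 of 18299), and 0 by DESeq2. An unadjusted p under 0.05 was found for 0 of the 10 and for 2.93% of all tested genes. Rela was the 1 gene of the 10 whose groups did not overlap, higher in GB20 by a log2 fold change of 0.22 (SE 0.109, edgeR adjusted p = 0.9999, unadjusted 0.0614), where 8.34% of all tested genes did not overlap. The 95% confidence interval of the difference ran from -0.53 to 1.10 for Bcl3 (log2 fold change 0.28) and from -0.18 to 0.49 for Tnfrsf1a (0.15). Single libraries turned both signs: Bcl3 was at -0.049 without GV16 2 and at 0.95 without GV16 3, and Tnfrsf1a at -0.0021 without GB20 2 and at 0.28 without GV16 1. By sign 6 of the 10 genes were higher in GB20 (7 with the length trend removed), and the median log2 fold change was 0.099 beside 0.00097 over all tested genes.

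The comparisons of the needled groups with SHAM ask what still distinguishes needled immunized retinas from control retinas, and both share the SHAM libraries with the comparison of MOG. In GB20 against SHAM, 0 of the 10 genes were called by edgeR, where 0.344% of all tested genes were called (63 of 18299), and DESeq2 called 0. With the library number as a block, 182 of all tested genes were called. Of the 10 genes 3 had an unadjusted p under 0.05, beside 9.06% of all tested genes. Tnfrsf1a had a log2 fold change of 0.57 (SE 0.164) with an edgeR p of 0.00223 unadjusted and 0.162 adjusted; with no filter on low counts it was called (0.56, adjusted p = 0.0460), and over all 19 alternatives its adjusted p ran from 0.0460 to 0.445. Bcl3 had a log2 fold change of 0.89 (SE 0.417, edgeR adjusted p = 0.524; 0.58 without SHAM 3), and Nfkbiz of 0.23 (SE 0.102, adjusted p = 0.510). Bcl3, Tnfrsf1a and Tnfrsf1b were higher in each GB20 library than in each SHAM library, 3 of 10 genes where 12.7% of all tested genes did not overlap. By sign 9 of the 10 genes were higher in GB20, Nfkb2 being the exception, and the median log2 fold change was 0.17 beside 0.00085 over all tested genes.

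In GV16 against SHAM, 0 of the 10 genes were called by edgeR, where 0.656% of all tested genes were called (120 of 18299), and DESeq2 called 0. With the library number as a block, 236 of all tested genes were called. Of the 10 genes 2 had an unadjusted p under 0.05, beside 10.9% of all tested genes. Tnfrsf1a had a log2 fold change of 0.41 (SE 0.167, edgeR adjusted p = 0.343, unadjusted 0.0214) and Nfkbiz of 0.23 (SE 0.103, adjusted p = 0.415, unadjusted 0.0380). Bcl3 had a log2 fold change of 0.61 (SE 0.434, edgeR adjusted p = 0.648), which without GV16 3 was -0.052. The groups overlapped for all 10 genes, where they did not overlap for 14.5% of all tested genes, and the median log2 fold change was 0.11 beside -0.0041 over all tested genes.

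Across the 12 libraries, the 2 genes that rose in MOG varied together, with a Pearson correlation of log2 CPM of 0.782 between Bcl3 and Tnfrsf1a, a description that includes the difference between the groups. The genes most like Bcl3 over the 12 libraries were the antisense RNA Med9os (0.949), Lif (0.915), which encodes a cytokine of the interleukin-6 family, and Cxcl10 (0.914), which encodes a chemokine. Those most like Tnfrsf1a were Serping1 (0.925), which encodes the C1 inhibitor of complement, the processed pseudogene Gm6012 (0.902) and Rnf144b (0.883), a ubiquitin ligase gene. These 6 genes were picked by correlations over libraries that include MOG and SHAM, so their tests in this comparison are a description only. Of the 6, Serping1 (log2 fold change 0.76, edgeR adjusted p = 0.0152) and Rnf144b (0.57, adjusted p = 0.000282) rose in MOG against SHAM. The other 4 did not pass the edgeR test: Cxcl10 (log2 fold change 2.10, adjusted p = 0.139), Lif (1.22, 0.201), Med9os (0.73, 0.116) and Gm6012 (0.62, 0.497). Cxcl10 was called in 4 of 19 alternatives, with no filter, in the edgeR and DESeq2 fits of the 6 libraries compared and without GV16 2, Serping1 in 15, Rnf144b in 19 and the other 3 in 0.

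The rest of the pathway was described by 6 lists of genes, also chosen with earlier results of these data known, so their shares of calls are a description only. Of the 4 other genes of the factor and IkB families, Rel, Nfkbib, Nfkbie and Nfkbid, all 4 were tested and 0 were called by edgeR in MOG against SHAM; 1 had an unadjusted p under 0.05, DESeq2 called 0, and the median log2 fold change was -0.011. Of 28 genes of kinases and adaptors between receptor and factor, 26 were tested and 0 called by edgeR or DESeq2, 1 had an unadjusted p under 0.05, and the median was 0.044. The most abundant of them, here and for the other lists by mean CPM with no correction for length, were Chuk at 98.3 CPM, Rbck1 at 96.5 CPM and Ikbkg at 90.6 CPM. Chuk and Ikbkg encode a catalytic and the regulatory subunit of the IkB kinase complex, and Rbck1 a subunit of the linear ubiquitin ligase. All 7 genes of feedback regulators were tested, 0 were called by edgeR or DESeq2, 1 had an unadjusted p under 0.05, and the median was 0.026; with no filter or without MOG 1, 1 was called as higher. Tnfaip3, which encodes the ubiquitin-editing enzyme A20 that ends NF-kB activation, was at a mean of 377 CPM with a log2 fold change of -5.8e-05 in MOG against SHAM.

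Of 22 other receptor genes of the TNF family, 15 were tested and 0 called by edgeR or DESeq2 in MOG against SHAM, 3 had an unadjusted p under 0.05, and the median log2 fold change was 0.067. With no filter, without SHAM 3 or without MOG 1, edgeR called 1 of them as higher. Ngfr, which encodes the neurotrophin receptor of the family, was the most abundant of them at 36.8 CPM. Of 18 ligand genes 7 passed the filter, 0 were called by edgeR or DESeq2, 1 had an unadjusted p under 0.05, and the median was 0.0025. That 1 gene, Tnfsf8, lay near the filter, at a mean of 0.214 CPM in SHAM and 0.657 CPM in MOG. Tnf, the gene of the ligand of both TNF receptors, had 4 counts in the 12 libraries together and at most 1 in any library, and Lta, the gene of lymphotoxin alpha, had 26 counts in all. Differences in Tnf between the groups were not detectable at this depth. Tnfsf12, the gene of the Fn14 ligand TWEAK, was the most abundant ligand gene at 69.7 CPM and Tnfsf13, the gene of APRIL, the next at 28.8 CPM, but 48.3% and 60.05% of their exon bases overlap other genes, so both levels are uncertain.

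Of 24 genes known as targets of NF-kB, 13 were tested and 3 were called in MOG against SHAM, 2 higher and 1 lower, where 1.34% of all tested genes were called, and 9 had an unadjusted p under 0.05, 6 of them higher and 3 lower, where 13% of all tested genes had. By sign alone 9 of the 13 were higher in MOG and 4 lower. DESeq2 on the 12 libraries called 4, 3 higher and 1 lower, as did edgeR with no filter. Their median log2 fold change was 0.44. Vcam1, which encodes an adhesion molecule for leukocytes, was at 12.5, 13.5 and 11.98 CPM in SHAM and at 16.3, 18.1 and 17.2 CPM in the MOG libraries, a log2 fold change of 0.44 (SE 0.110, edgeR adjusted p = 0.0414). Gadd45b, a stress response gene, was at 7.75, 8.70 and 5.55 CPM in SHAM and at 10.6, 12.5 and 13.5 CPM in the MOG libraries, a log2 fold change of 0.74 (SE 0.17, edgeR adjusted p = 0.0287). Mmp9, which encodes a matrix-degrading protease, was at 15.3, 16.1 and 15.2 CPM in SHAM and fell to 10.4, 10.5 and 11.2 CPM in the MOG libraries, a log2 fold change of -0.54 (SE 0.132, edgeR adjusted p = 0.04). The MOG libraries of each of these 3 genes did not overlap with SHAM, as was so for 16.2% of all tested genes. Those of Icam1, Cxcl10 and C3 (higher in MOG) and of Ier3 and Bcl2l1 (lower) did not overlap either, and those of the other tested targets did. In the fits that leave out 1 library the list had 0 to 4 calls. The call of Gadd45b was lost without SHAM 1, SHAM 3, MOG 2 or MOG 3 (log2 fold change 0.57 to 0.89 leaving out 1 library, edgeR or DESeq2 adjusted p 5.92e-05 to 0.176 over all alternatives). That of Mmp9 was lost without SHAM 1, SHAM 2, any MOG library or GB20 3 (-0.57 to -0.51, adjusted p 0.00438 to 0.210). That of Vcam1 was lost without SHAM 1, SHAM 3, any MOG library, GB20 1, GB20 3 or GV16 3 (0.40 to 0.50, adjusted p 0.0278 to 0.234) and in the fits of the 6 libraries compared or with the length trend removed. In the other 5 comparisons, 1 call was made over the 6 lists, Mmp9 lower in GV16 against SHAM (log2 fold change -0.58, edgeR adjusted p = 0.0413). It was made in 4 of the 12 fits that leave out 1 library and lost without SHAM 1, SHAM 2, any MOG library, GB20 3, GV16 2 or GV16 3 (-0.71 to -0.49) and in the fits of the 6 libraries compared.

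**Figure D4:**
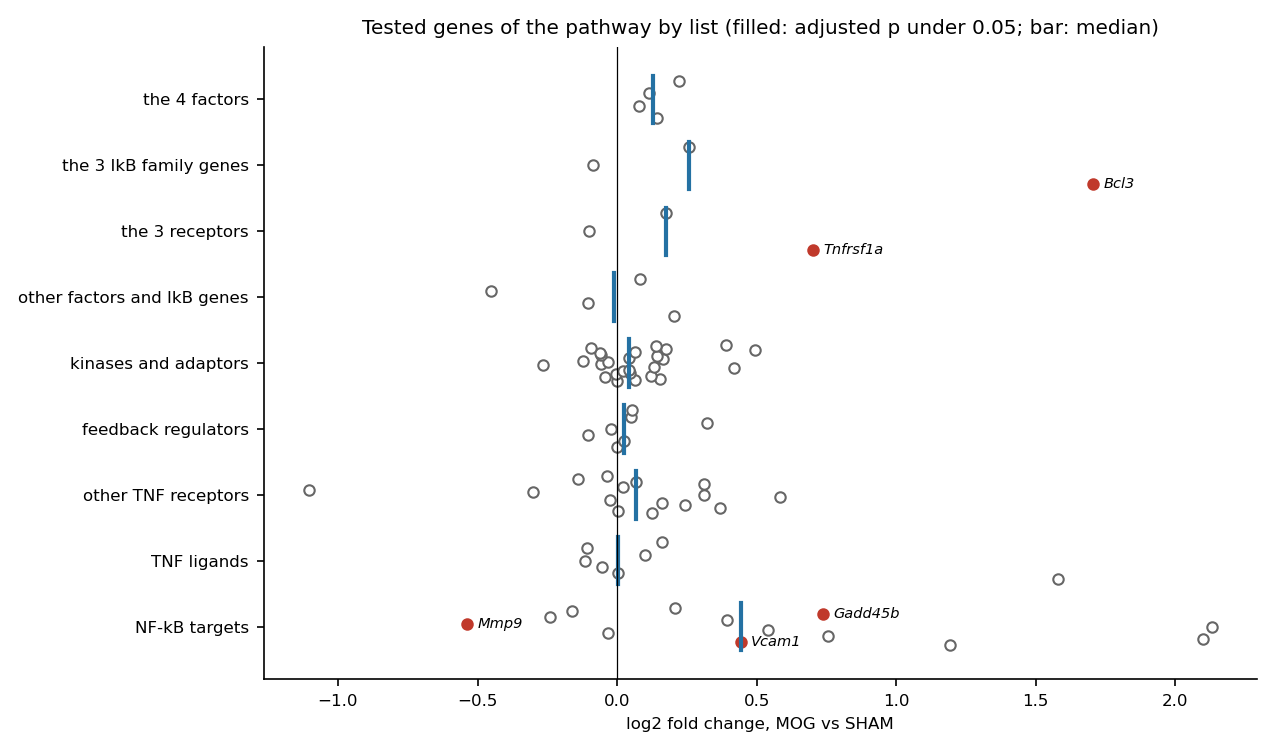
Log2 fold change in MOG against SHAM of each tested gene of the 10 genes and of the 6 pathway lists, with a bar at the median of each list; filled points have an adjusted p under 0.05. The median of the target genes is 0.44, and those of the other 5 lists lie between -0.011 and 0.067.

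Markers of several cell types differed between MOG and SHAM together with Bcl3 and Tnfrsf1a, and in bulk retina fewer cells of a type and less RNA per cell cannot be told apart. The marker lists were also chosen with earlier results of these data known. In MOG against SHAM, edgeR called 1.34% of all tested genes, and 0.568% as higher in MOG. All 12 of 12 ganglion cell markers fell in MOG against SHAM by edgeR (8 without SHAM 1, MOG 2 or MOG 3). Their summed level was 1133, 1058 and 994 CPM in the SHAM libraries, 694, 581 and 580.1 CPM in those of MOG, 695, 695 and 712 CPM in those of GB20 and 773, 622 and 555 CPM in those of GV16, with Nefl the most abundant. Of 13 markers of reactive glia, 10 rose in MOG (7 to 10 leaving out 1 library, 8 in the edgeR fit of the 6 libraries compared). Their summed level was 296, 320.4 and 312 CPM in the SHAM libraries, 503, 530.3 and 583 CPM in those of MOG, 499.7, 490.9 and 471 CPM in those of GB20 and 456, 405 and 509 CPM in those of GV16, with Cp the most abundant. Of 16 markers of microglia and macrophages, 3 rose in MOG (Csf1r, C1qa and Ctss). Their summed level was 63.0, 65.5 and 55.8 CPM in the SHAM libraries, 91.7, 85.8 and 92.8 CPM in those of MOG, 100.3, 84.3 and 77.7 CPM in those of GB20 and 96.3, 86.3 and 84.3 CPM in those of GV16. The 3 calls became 1 without SHAM 3, MOG 1 or MOG 3 or in the edgeR fit of the 6 libraries compared, and none of these markers was at 0 in all libraries. By sign 16 of the 16 microglia and macrophage markers were higher in MOG against SHAM, with a median log2 fold change of 0.55. Of them 7 had an unadjusted edgeR p under 0.05, beside 13% of all tested genes. Against MOG, 12 of the 13 reactive glia markers were lower and 1 higher in GB20 (median log2 fold change -0.35, Osmr called). In GV16 against MOG 12 were also lower and 1 higher (median -0.49, Fgf2 and Osmr called). Of the Müller glia markers, Aqp4 was called lower and Car14 higher by edgeR in both needled groups against MOG. The part of these cell types in the results on Bcl3, Tnfrsf1a and the target genes was not tested.

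Markers of infiltrating cells were near the limit of the counts. Of 10 T cell markers 1 was tested, Lck, the most abundant, and Cd3d, Cd3e, Cd3g, Trac and Cd2 had at most 3 counts in every library. The summed level of the T cell markers was 1.21, 1.53 and 1.776 CPM in the SHAM libraries, 2.07, 1.782 and 2.82 CPM in those of MOG, 2.63, 2.55 and 1.64 CPM in those of GB20 and 3.41, 1.67 and 3.22 CPM in those of GV16. Every MOG sum was thus above every SHAM sum, the closest by less than 1 count, and Lck had a log2 fold change of 0.77 (SE 0.409, edgeR adjusted p = 0.432). Of 9 B cell and neutrophil markers 0 passed the filter, Ms4a1 was at 0 in all 12 libraries, S100a8, S100a9, Retnlg, Mpo and Elane had at most 3 counts in every library, and the most abundant was Cd79a at 0.384 CPM. Of 12 markers of Müller glia, 1 rose in MOG (Aqp4; 2 with no filter, with the length trend removed or without SHAM 2) and 0 fell (1 with no filter or by DESeq2 on the 12 libraries), with summed levels of 4437 to 5019.6 CPM and Glul the most abundant. By edgeR 0 of 12 endothelial markers (261 to 321 CPM, Kdr the most abundant), 0 of 10 rod markers and 0 of 8 cone markers (1404 to 1605 CPM in SHAM, 1357 to 1402 in MOG and 1348 to 1583 in the needled groups, Opn1sw) were called in MOG against SHAM, with 1, 1 and 2 at an unadjusted p under 0.05 and 0 by DESeq2. By sign 7 of the 12 endothelial markers were lower and 5 higher in MOG against SHAM (median log2 fold change -0.24). Against SHAM, 9 were lower and 3 higher in GB20 (median -0.30), and 10 lower and 2 higher in GV16 (median -0.29), with 0 called by edgeR. Of 10 markers of pigment epithelium 9 were tested and 0 called by edgeR, with 4 at an unadjusted p under 0.05. Calls, all higher in MOG, were 1 by DESeq2 on the 12 libraries, 3 in each fit of the 6 libraries compared, 3 without GV16 1, and 1 with no filter or without GV16 2. Their summed level was 24.0, 29.6 and 22.1 CPM in the SHAM libraries, 40.1, 52.9 and 39.8 CPM in those of MOG, 41.4, 48.2 and 40.7 CPM in those of GB20 and 23.2, 63.6 and 38.9 CPM in those of GV16, with Ttr the most abundant. Of 9 lens markers 2 were tested, 0 were called by edgeR or DESeq2 and 0 had an unadjusted p under 0.05; their summed level was 15.8 CPM in SHAM 2 and 9.06 CPM in GB20 2 and at most 2.31 CPM in the other libraries, with Cryaa the most abundant.

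**Figure D5:**
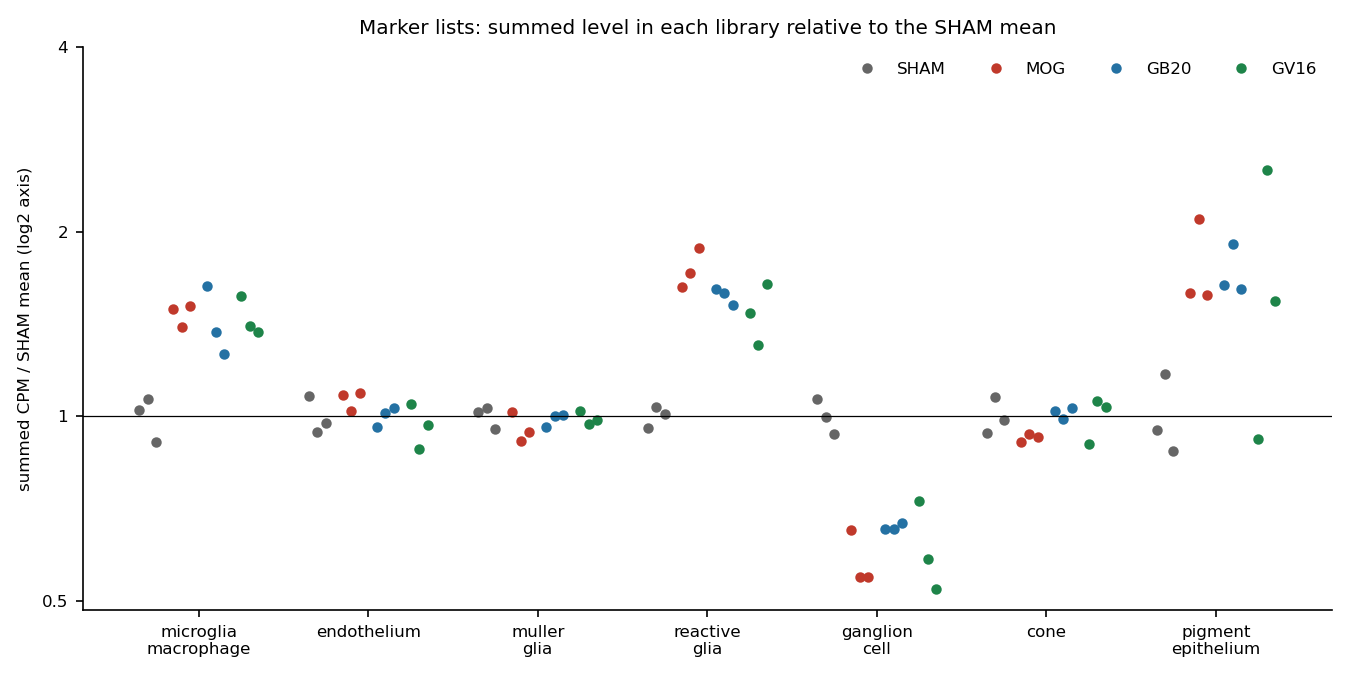
Summed CPM of 7 marker lists in each library, divided by the mean of the 3 SHAM libraries (log2 axis). In MOG, GB20 and GV16 the ganglion cell sums lie between 555 and 773 CPM beside 994 to 1133 in SHAM, and those of reactive glia between 405 and 583 CPM beside 296 to 320.4 in SHAM.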

How the data were processed

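The 10 genes and the gene lists were chosen with earlier results of these data known. Whole-number counts per gene and FPKM values were used as deposited by the authors, who selected polyadenylated RNA, made NEBNext Ultra libraries, aligned reads with HISAT2 2.0.5 (build mm10, per the submitters' processing notes) and counted them per gene; FPKM were computed by the authors from gene length and count. The sources used here give neither the annotation release nor the strand setting. Of the per-sample columns, 0 were left unused. Names and positions came from GENCODE vM21 on GRCm38, which held 54495 of the 54532 identifiers and not the other 37.

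Counts were fitted in R 4.3.3 with edgeR 4.0.16: filterByExpr with a minimum count of 10 kept 18299 of the 34538 genes with a count, libraries were scaled by TMM, and 1 mean per group was fitted over the 12 libraries with robust quasi-likelihood dispersion. Tests for 6 comparisons were 2-sided, each adjusted over all tested genes by Benjamini-Hochberg. Named were the 10 genes, for each called one the 3 genes most like it, called genes of the pathway lists, up to 3 of the most abundant genes of each pathway list, and the most abundant marker of most marker lists with markers at 0. Tnf, Lta, Tnfsf8, Ptgs2, overlapping genes, uncalled target genes without overlap of the groups and other markers were named after their values were seen. Alternatives were DESeq2 1.42.0 on all 12 or on the 6 libraries compared, edgeR on those 6, DESeq2 size factors, no filter, a replicate block, removal of a length trend, and leaving out each library; the recounts of list genes and of the genes most alike under these were added after seeing the data. The main edgeR fit, DESeq2 on all 12 libraries, edgeR on the 6 libraries compared and the replicate block were also run on simulated counts. The other alternatives were not.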

Additional observations from a re-analysis of the deposited data

How the results depend on the processing

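Bcl3 and Tnfrsf1a were called in MOG against SHAM under all 7 alternatives other than leaving out a library, with adjusted p from 0.00014 to 0.0248 and from 0.00158 to 0.0276 (edgeR or DESeq2). Leaving out 1 library each time, 0 to 2 of the 10 genes were called there. With no filter on low counts, 1 of the 10 genes, Tnfrsf1a, was called in GB20 against SHAM. The median log2 fold change of all genes stayed between -0.0102 and 0.0224 in every fit. Of the 60 fold changes of the 10 genes, 38 kept their sign in all 20 fits and 22 did not. Of the 1140 values under the alternatives 50 had another sign, all among the 418 values of those 22, and the largest of those 22 as reported was 0.61. Depth limits Bcl3 and Tnfrsf1b most, at 7 to 46 and 15 to 43 counts per library. The cause of the changes below was not tested.

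The number of all genes called was 245 in MOG against SHAM and became 539 with no filter and 91 to 427 leaving out 1 library. It went in GB20 against MOG from 44 to 140 (no filter), 126 (DESeq2 on 6 libraries), 118 (edgeR on 6) and 13 to 83 (1 library out), and in GV16 against MOG from 30 to 73, 57, 48 and 10 to 38 in the same order. In GB20 against GV16 it went from 1 to 8 (no filter), 5 (DESeq2 on 12), 4 (DESeq2 on 6), 3 (edgeR on 6) and 0 to 4 (1 library out). In GB20 against SHAM it went from 63 to 282 (no filter), 152 (DESeq2 on 12), 124 (DESeq2 on 6), 125 (length trend removed) and 14 to 116 (1 library out), and in GV16 against SHAM from 120 to 395 (no filter), 202 (DESeq2 on 12), 66 (edgeR on 6) and 23 to 231 (1 library out).

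With the replicate number as a replicate block, the number of genes called became 404 in MOG against SHAM, 73 in GB20 against MOG, 47 in GV16 against MOG, 182 in GB20 against SHAM and 236 in GV16 against SHAM, and the log2 fold change of Rela in GB20 against MOG was 0.0015. The labels do not say that a number marks a shared day or animal: over 11152 genes, deviations from the group means correlated between -0.174 and 0.518 for libraries of the same number and between -0.509 and 0.295 for others, and 9 of 12 libraries correlated best with their own number. For numbers 1, 2 and 3, the correlations of SHAM were 0.211, 0.518 and 0.488 with GB20 and 0.222, 0.281 and 0.256 with GV16. With MOG those of SHAM were 0.262, -0.0722 and 0.0943. Those of MOG were -0.0412, -0.0268 and 0.0223 with GB20 and 0.374, 0.0101 and 0.108 with GV16. Between GB20 and GV16 they were -0.174, 0.0128 and 0.0785. The methods describe 3 repeats of the experiment, and whether a library number marks a repeat is not stated. The block changed no call of the 10 genes. In MOG against SHAM it changed the calls of the lists from 0 to 1 higher for other TNF receptors, from 0 to 1 lower each for cone and lens markers, from 0 to 2 higher for pigment epithelium and from 3 to 4 higher for microglia.

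Other signs were as follows, on the log2 scale. With no filter, Rela was at 0.0010 in GB20 against MOG and Nfkbiz at 0.00074 in GB20 against GV16; with the length trend removed, Tnfrsf12a was at -0.020 in GB20 against MOG and Nfkb1 at 0.018 in GB20 against GV16. Leaving out 1 library, the lowest and highest values in MOG against SHAM were -0.046 and 0.18 for Nfkb2 and -0.54 and 0.19 for Tnfrsf1b. With the sign kept, they were 0.061 and 0.22 for Nfkb1, 0.021 and 0.22 for Rela, 0.040 and 0.42 for Relb, -0.12 and -0.043 for Nfkbia, and 0.028 and 0.32 for Tnfrsf12a. In GB20 against MOG they were -0.10 and 0.086 for Rela, -0.40 and 0.091 for Relb, -0.087 and 0.031 for Nfkbiz, and -0.25 and 0.16 for Tnfrsf12a. In GV16 against MOG they were -0.077 and 0.030 for Nfkbiz, -0.12 and 0.67 for Tnfrsf1b, and -0.059 and 0.17 for Tnfrsf12a. In GB20 against GV16 they were -0.085 and 0.036 for Nfkb1, -0.20 and 0.28 for Relb, -0.049 and 0.95 for Bcl3, -0.056 and 0.036 for Nfkbiz, -0.0021 and 0.28 for Tnfrsf1a, and -0.30 and 0.10 for Tnfrsf12a. In GB20 against SHAM they were -0.029 and 0.13 for Nfkb1, -0.18 and 0.31 for Relb, and -0.071 and 0.36 for Tnfrsf12a. In GV16 against SHAM they were -0.16 and 0.13 for Relb, -0.052 and 0.94 for Bcl3, -0.084 and 0.073 for Nfkbia, and -0.22 and 0.34 for Tnfrsf1b.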
